A study of Mus musculus with 13 samples.

Results

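The 10 genes described here are the neutrophil granule genes, grouped by the stage of granulocyte maturation at which their RNA is made. They were chosen by name and function, and all 10 were found among the 23211 mouse genes of the count matrix. The primary granule genes were Elane, Mpo and Prtn3. The secondary and tertiary granule genes were Ngp, Camp, Ltf, Lcn2 and Mmp8. The late genes were S100a8 and S100a9.

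Neutrophils are made in bone marrow through a series of stages, and each stage fills its own kind of granule. Promyelocytes make the proteases and peroxidase of the primary (azurophil) granules, myelocytes and metamyelocytes then make the secondary granule proteins, and band cells make the tertiary granule proteins. The RNA of the primary granule proteins is largely gone from later stages, so the balance between the groups is commonly read as a sign of maturation stage. S100a8 and S100a9 encode calprotectin, a calcium- and zinc-binding protein complex that fills the cytosol of late precursors and mature neutrophils. Stromal cells that carry the leptin receptor (LEPR) are not known as makers of primary granule proteins, whereas Lcn2 can also be made by other cell types under inflammation.

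The 13 libraries were described as made from polyA RNA of cells sorted as lineage-negative and LEPR-positive from tissue around mouse tibia implants. The 7 fibrous libraries came from fibrous tissue around PMMA implants, and the 6 bone libraries from bone around Pressfit implants. Library names divide the same libraries a second way, into an XY9274 series of 4 (fibrous 6 and 7, bone 5 and 6) and an L002 series of 9. Within L002, 3 names hold the token Lin (fibrous 5, bone 3 and 4), 5 hold the token plus (fibrous 2, 3 and 4, bone 1 and 2) and fibrous 1 holds neither. In the full names LepR stands before plus in each plus name except that of bone 1. The XY9274 names hold Lepr.Pos, and the Lin names hold no LepR. What the tokens mean was not explained, and the strain, age, sex and pooling of animals were not given in the sources used here. Nothing in the labels says that the libraries of a group are separate animals, so p-values cover a spread between libraries that could be technical.

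Totals ran from 18056208 to 44302166 counts in fibrous libraries and from 16162321 to 43217004 in bone libraries. The gene of the sort marker, Lepr, lay below 5 CPM (the normalised count, scaled to library size with factors from the trimmed mean of M values, TMM) in 5 libraries (fibrous 1 and 5, bone 3, 4 and 5) and between 46.7 and 804.0 CPM in the other 8. The share of counts on haemoglobin genes ran from 0.756% to 19.98% in fibrous libraries and from 0.129% to 35.4% in bone libraries. Libraries also differed in their balance of short and long transcripts. The median log2 deviation of the 2659 shortest tested genes (exon length up to 2037 bases) minus that of the 2659 longest (7247 bases or more) was 0.75 to 1.83 in the 3 Lin-named libraries and -1.40 to -0.53 in the 4 XY9274 libraries, against -0.36 to 0.42 in the other 6.

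By GENCODE M21 on mm10, Elane (chr10:79886247-79888215, plus strand) and Prtn3 (chr10:79874476-79883174, plus) lie 3.07 kb apart on chromosome 10, and Mpo lies at chr11:87793581-87804413 (plus). Ngp (chr9:110419747-110423012, plus), Camp (chr9:109847379-109849617, minus), Ltf (chr9:111019271-111042767, plus) and Mmp8 (chr9:7558456-7568485, plus) share chromosome 9, and Lcn2 lies at chr2:32384633-32388252 (minus). S100a8 (chr3:90668978-90670035, plus) and S100a9 (chr3:90692632-90695721, minus) lie 22.6 kb apart with no gene of the matrix between them. All 10 are protein-coding genes.

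The promoters of granule genes are known to be bound by the myeloid factor PU.1 and by factors of the C/EBP family, and C/EBP epsilon is needed for secondary granule genes. The 250 bases before the RefSeq start site (GRCm38.p6) were therefore searched on both strands for GAGGAA, a core form of a PU.1 site, and for TTNNGNAA, a loose form of a C/EBP site, and on the given strand for TATAAA. All 10 genes matched an entry. Of the promoters with any match, 4 are shown because they hold the different combinations of matches found. They are printed in the given strand of each gene, 5′ to 3′, with matches in capitals. They are Elane (chr10:79886062-79886311, plus strand), Ngp (chr9:110419558-110419807, plus), Ltf (chr9:111019042-111019291, plus) and S100a8 (chr3:90668821-90669070, plus).
Elane: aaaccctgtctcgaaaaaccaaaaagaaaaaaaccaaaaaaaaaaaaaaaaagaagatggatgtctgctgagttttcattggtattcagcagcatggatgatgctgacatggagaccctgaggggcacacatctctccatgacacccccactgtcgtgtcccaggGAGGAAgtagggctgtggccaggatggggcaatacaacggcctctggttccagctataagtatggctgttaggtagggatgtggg
Ngp: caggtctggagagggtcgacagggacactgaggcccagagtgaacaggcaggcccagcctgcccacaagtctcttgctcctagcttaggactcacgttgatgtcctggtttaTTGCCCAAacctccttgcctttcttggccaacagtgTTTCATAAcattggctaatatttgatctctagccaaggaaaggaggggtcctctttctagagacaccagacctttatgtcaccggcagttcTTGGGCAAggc
Ltf: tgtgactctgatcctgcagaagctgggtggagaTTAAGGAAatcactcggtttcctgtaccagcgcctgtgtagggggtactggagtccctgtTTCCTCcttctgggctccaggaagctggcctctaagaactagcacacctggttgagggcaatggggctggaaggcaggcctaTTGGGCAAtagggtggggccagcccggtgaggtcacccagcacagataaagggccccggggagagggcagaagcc
S100a8: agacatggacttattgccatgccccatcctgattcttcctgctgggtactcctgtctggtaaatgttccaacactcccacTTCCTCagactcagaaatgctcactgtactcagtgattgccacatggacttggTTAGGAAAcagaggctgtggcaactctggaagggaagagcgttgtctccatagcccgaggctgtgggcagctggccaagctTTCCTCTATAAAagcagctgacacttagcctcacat

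GAGGAA was found in all 3 primary genes, at 85 bases before the start site in Elane, 95 in Prtn3, and 247 and 224 in Mpo. It was also found in Ltf, Lcn2, Mmp8 and S100a8, so that 7 of 10 members held it, and 23.3% of all 32851 promoter windows did. TTNNGNAA was found in 6 of 10 members and in 36.8% of all windows. None of the 3 primary genes held it, while 4 of the 5 secondary and tertiary genes (Ngp with 3 matches, Ltf and Mmp8 with 2 each, Lcn2 with 1) and both late genes did. TATAAA was found in S100a8 alone, 30 bases before the start site, and in 7.59% of all windows. In S100a8 the match to TATAAA directly follows a match to GAGGAA on the other strand. Camp held no match to any of the 3 motifs. The GENCODE start of Elane lies 65 bases, of Ngp 61 bases, of Ltf 21 bases and of S100a8 93 bases upstream of the RefSeq start used here. For Prtn3 this distance is 5191 bases, for Lcn2 513, for Mpo 203 and for Camp 161. It is 0 for S100a9 and -27 for Mmp8, where the GENCODE start is downstream. The windows thus depend on the annotation, most of all for Prtn3. A match is a description of letters, and binding was not measured.

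Granule gene RNA was found in all 13 libraries, at levels that differed widely between libraries of the same group. The 10 genes together held 0.0628% to 2.87% of all counts in fibrous libraries (median 0.848%) and 0.176% to 10.3% in bone libraries (median 2.10%). In bone 5, where Lepr was at 2.42 CPM, they held 10.3% of the library, Ngp was the most abundant gene of the whole matrix, S100a8 the second and S100a9 the third, and 8 of the 10 were among its 25 most abundant genes. In fibrous 1, fibrous 3 and bone 1 no member was among the 100 most abundant. Fewer neutrophil-lineage cells and less granule RNA per cell cannot be told apart in such bulk libraries.

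**Figure D1:**
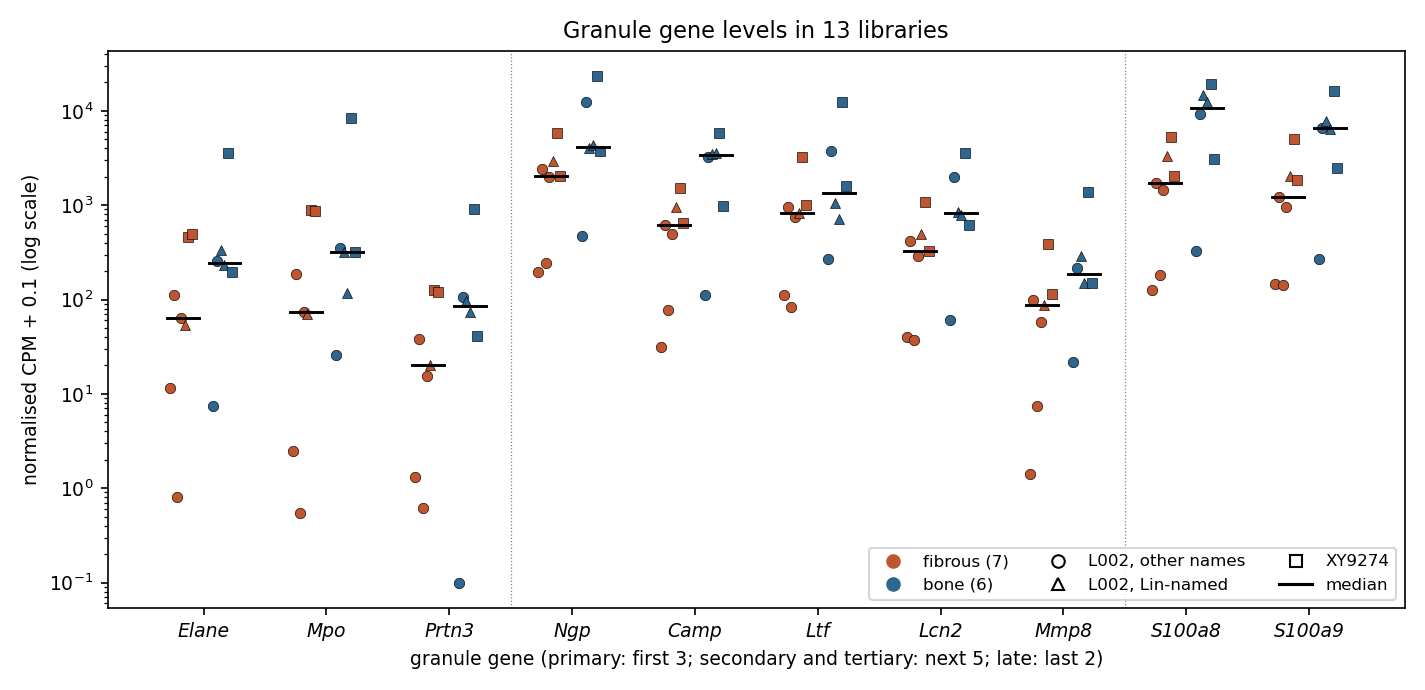
Normalised CPM of the 10 granule genes (log axis, 0.1 added so that the library at 0 can be drawn) in 7 fibrous and 6 bone libraries, each point a library and each bar a group median. Every median is lower in fibrous libraries, the groups overlap for all 10 genes, and Prtn3 in bone 1 is the point at 0 CPM.

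Elane encodes neutrophil elastase, a serine protease. It had 0.698, 64.3 and 493.5 CPM as the lowest, median and highest fibrous value, against 7.29, 243.5 and 3616 CPM in bone. The highest fibrous values were those of the 2 XY9274 libraries (454.8 CPM in fibrous 6, 493.5 CPM in fibrous 7), both above all bone libraries but bone 5. Its log2 fold change, fibrous minus bone, was -2.06 (standard error, SE, 0.96). Mpo encodes myeloperoxidase, which makes hypochlorous acid. It had 0.441, 73.2 and 888.7 CPM in fibrous libraries, against 25.6, 318.3 and 8298 CPM in bone libraries, a log2 fold change of -1.81 with an SE of 1.08. As for Elane, fibrous 6 and fibrous 7 were above every bone library except bone 5. Prtn3 encodes proteinase 3, a protease close to elastase in sequence and in position. It had 0.5145, 19.9 and 125.8 CPM in fibrous libraries, against 0, 85.3 and 914.6 CPM in bone libraries, a log2 fold change of -2.13 with an SE of 1.16. The 0 was that of bone 1, where no count among 22409369 allows up to 3 counts, or 0.134 CPM of the unscaled total, a limit that covers counting error only. The lowest primary values rest on few reads: in fibrous 3 there were 19 counts of Elane, 12 of Mpo and 14 of Prtn3.

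Ngp encodes neutrophilic granule protein, a secondary granule protein of the cystatin fold known from mice. It had 196.6, 2020 and 5784 CPM in fibrous libraries, against 469.7, 4177 and 23370 CPM in bone libraries, a log2 fold change of -1.78 with an SE of 0.79. Only bone 2 and bone 5 were above all fibrous libraries. Camp encodes cathelicidin, an antimicrobial peptide precursor. It had 31.0, 621.6 and 1533 CPM in fibrous libraries, against 111.0, 3394 and 5822 CPM in bone libraries, a log2 fold change of -2.29 with an SE of 0.85. All 7 fibrous values were below the bone median, and 4 of 6 bone libraries were above every fibrous one. Ltf encodes lactoferrin, which binds iron. It had 83.1, 825.0 and 3243 CPM in fibrous libraries, against 266.1, 1337 and 12490 CPM in bone libraries, a log2 fold change of -1.50 with an SE of 0.75, the smallest difference of the 10 genes. Lcn2 encodes lipocalin 2, which binds the siderophores with which bacteria collect iron. It had 37.6, 324.2 and 1073 CPM in fibrous libraries, against 60.5, 821.1 and 3570 CPM in bone libraries, a log2 fold change of -1.77 with an SE of 0.78. Mmp8 encodes neutrophil collagenase. It had 1.33, 87.5 and 391.3 CPM in fibrous libraries, against 21.4, 184.3 and 1379 CPM in bone libraries, a log2 fold change of -1.69 with an SE of 0.86. For Ltf, Lcn2 and Mmp8 the highest fibrous library was fibrous 6 and the highest bone library bone 5, both of the XY9274 series.

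S100a8 had 126.1, 1698 and 5225 CPM in fibrous libraries, against 324.8, 10790 and 19380 CPM in bone libraries, a log2 fold change of -2.41 with an SE of 0.89. S100a9 had 141.0, 1208 and 5076 CPM in fibrous libraries, against 268.5, 6532 and 16210 CPM in bone libraries, a log2 fold change of -2.22 with an SE of 0.82. For both genes all 7 fibrous values were below the bone median and 4 of 6 bone libraries were above every fibrous library, while bone 1 lay below 5 of the 7 fibrous libraries.

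No granule gene passed the test between fibrous and bone libraries. edgeR's quasi-likelihood test, fitted over all 13294 tested genes with the name series as a term and an adjusted p threshold of 0.05, called 0 of the 10 members and 0% of all genes, and each member had an adjusted p of 0.873. At an unadjusted p under 0.05, 5 members were lower in fibrous libraries (S100a9, S100a8, Camp, Lcn2 and Ngp, with p between 0.0184 and 0.0427), as were 1.97% of all genes. DESeq2 called 0 of the 10 members and 1.27% of all genes, and limma's voom called 0 members and 0% of all genes. All 10 log2 fold changes were below 0, as were those of 48.1% of all genes, and all 10 were below -1, as were 6.15% of all genes. Their median was -1.94, against 0.03 over all genes. By stage the median was -2.06 for the primary, -1.77 for the secondary and tertiary and -2.31 for the late genes, so the stages lay closer to each other than the SE of any one gene. The biological coefficient of variation of the fit was 0.904, which is the depth-independent spread between libraries of a group.

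The member median was -2.02 in the L002 libraries alone and -1.76 in the XY9274 libraries alone. The XY9274 value rests on bone 5, which was above fibrous 6 and fibrous 7 for all 10 members. Bone 6 was below fibrous 6 for all 10, and below both fibrous libraries for Elane, Mpo and Prtn3. In an edgeR fit of fibrous 6 and fibrous 7 against bone 6 alone, chosen after seeing the data, all 10 log2 fold changes were above 0, with a median of 0.46 against 0.22 over all genes and no call. The interaction of name series and group called 0% of all genes and 0 of the 10 members in edgeR's quasi-likelihood test (adjusted p 1.00 for each), where 2.2% of all genes and 0 members had an unadjusted p under 0.05. The size depended on which libraries were used. Without bone 5 the member median was -1.53, and without the 5 libraries below 5 CPM of Lepr it was -1.20, with Elane at -0.38, Mpo at -0.31, Mmp8 at -0.49 and S100a8 and S100a9 at -1.38 and -1.35. Transcript length moved with the groups to a small extent: the median log2 fold change was -0.29 over the shortest genes and 0.24 over the longest.

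Markers of leukocytes in general had the same direction as the members, again with no call. The summed level of 10 pan-leukocyte genes ran from 244.0 to 2650 CPM in fibrous libraries and from 286.0 to 9130 CPM in bone libraries. All 10 had log2 fold changes below 0, as did 48.1% of all genes. One of the pan-leukocyte genes, Ptprc (the gene of CD45), had 0 counts in bone 4, where up to 0.186 CPM is allowed. Members together, divided by the pan-leukocyte sum, gave 2.44 to 11.0 in fibrous libraries (median 8.99) and 5.43 to 19.8 in bone libraries (median 12.6). Of other neutrophil markers, Ly6g, Retnlg, Cxcr2 and Csf3r together had 26.1 to 613.0 CPM in fibrous libraries and 13.6 to 2320 CPM in bone libraries, and Ly6g was at 0 in bone 1. Monocyte and macrophage markers summed to 80.6 to 450.0 CPM in fibrous libraries and to 181.0 to 2360 CPM in bone libraries, with 10 of 11 tested below 0. Eosinophil markers summed to 0.351 to 26.2 CPM in fibrous libraries and to 6.19 to 531.0 CPM in bone libraries, with 5 of 5 tested below 0. Basophil and mast cell markers summed to 5.95 to 520.0 CPM in fibrous libraries and to 5.30 to 1580 CPM in bone libraries, with 4 of 4 tested below 0. B and plasma cell markers summed to 64.9 to 1870 CPM in fibrous libraries and to 68.3 to 18100 CPM in bone libraries, the highest being bone 5, with 8 of 10 below 0. Erythroid markers had 8 of 9 below 0. T and NK cell markers summed to 2.22 to 20.6 CPM in fibrous libraries and to 0 to 21.8 CPM in bone libraries, and 0 of 2 tested were below 0. Marrow stromal markers, including Lepr, went the other way, with 0 of 10 below 0. The part of these cell types in the granule gene differences was not tested.

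To compare levels between genes, counts were divided by exon length and rescaled to the same sum in every library (TPM). On that scale S100a8 and S100a9 were the top 2 members in 13 of 13 libraries, with medians of 11300 and 10300 TPM. S100a8 was above S100a9 in 6 of 13, with an SD of 0.33 for their log2 difference, so the order of these neighbours varied within their spread. Ngp followed with a median of 4290 TPM and was below S100a9 in all 13. Camp came next with 3310 TPM and was below Ngp in 11 of 13; the exceptions were bone 3 and bone 4. Ltf (573.0 TPM), Elane (356.0 TPM) and Lcn2 (351.0 TPM) changed places between libraries: Ltf was above Elane in 9 of 13 and Elane above Lcn2 in 4 of 13. Mmp8 (127.0 TPM) was below Lcn2 in all 13, and its log2 difference to Mpo (99.3 TPM) had an SD of 1.60, with Mmp8 higher in 6 of 13. Prtn3 was lowest, with a median of 60.3 TPM.

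Primary genes were the most variable of the 3 stages. Their share of all counts ran from 0.000175% (fibrous 3) to 0.1774% (fibrous 6) in fibrous libraries and from 0.00372% (bone 1) to 1.39% (bone 5) in bone libraries. The secondary and tertiary genes held 0.0359% to 1.45% in fibrous libraries and 0.105% to 5.03% in bone libraries. The late genes held 0.0256% to 1.24% in fibrous libraries and 0.0672% to 3.84% in bone libraries. Within each library the make-up by stage was steadier. Per length, the late genes were 57.8% to 67.3% of the members' sum in fibrous libraries and 60.0% to 79.6% in bone libraries, and the primary genes 0.13% to 7.95% in fibrous libraries and 0.797% to 6.76% in bone libraries.

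**Figure D2:**
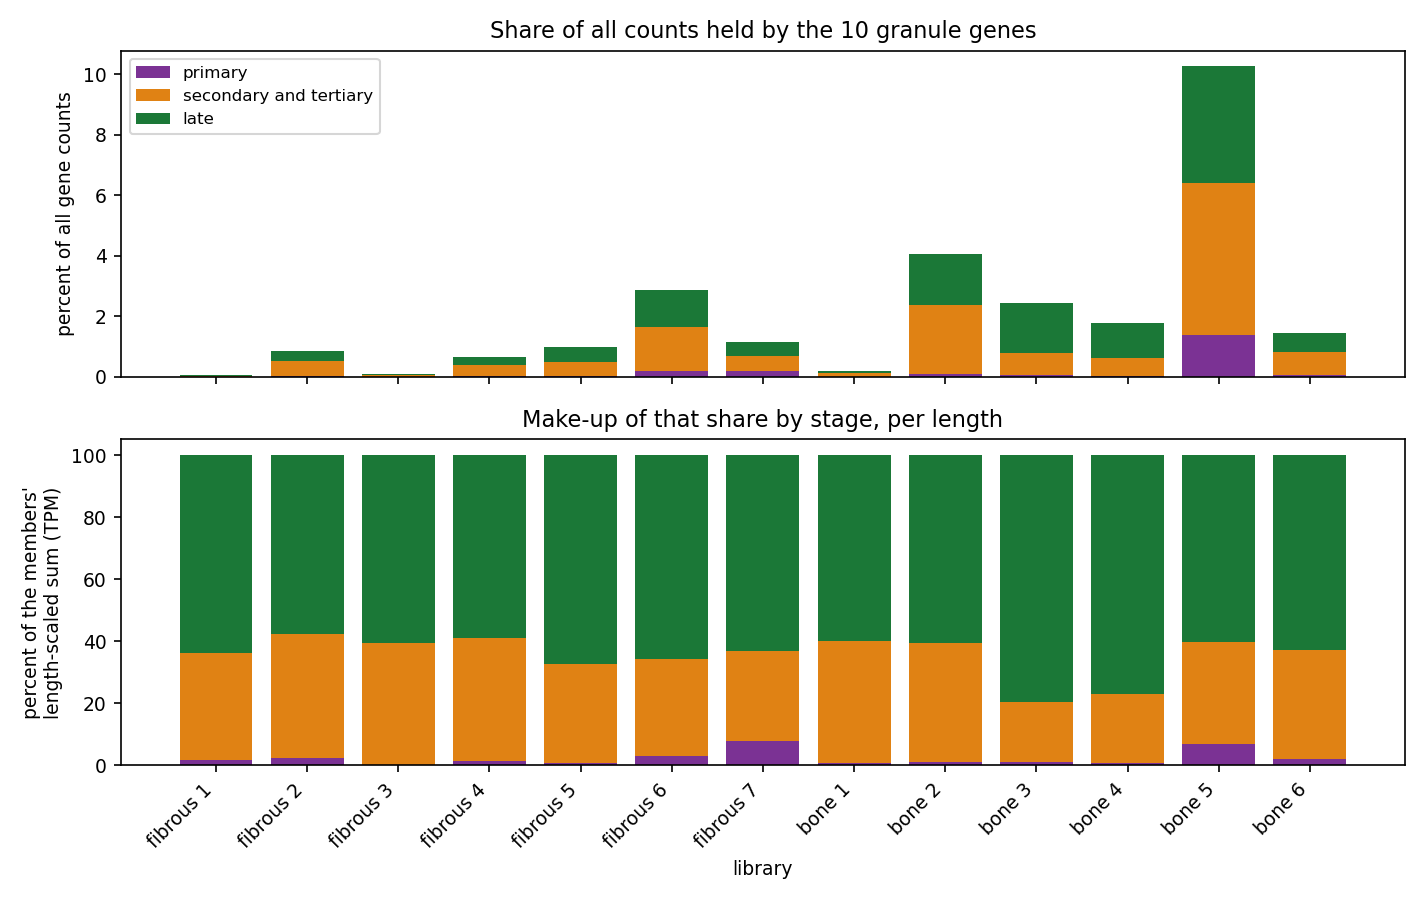
Upper panel, percent of all gene counts held by primary, secondary and tertiary, and late granule genes in each library; lower panel, each stage's percent of the members' length-scaled sum (TPM). Bone 5 reaches 10.3% of counts, the primary share is widest in fibrous 7 (7.95%) and bone 5 (6.76%), and the late share is widest in bone 3 (79.6%) and bone 4 (76.9%).

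The ratio of late to primary RNA per length separated some libraries. It was lowest in fibrous 7 (7.95) and bone 5 (8.90), followed by fibrous 6 (21.7), fibrous 2 (24.9) and bone 6 (29.2). It was highest in fibrous 3 (466.0), where the primary genes were close to the detection limit. The remaining libraries ran from 35.5 (fibrous 1) to 96.4 (bone 4), with fibrous 5 just above bone 4. By group it was 7.95 to 466.0 in fibrous libraries and 8.90 to 96.4 in bone libraries, so the bone range lay within the fibrous range, and fibrous 3 and fibrous 5 were above every bone library, as fibrous 7 was below every one. The ratio of late to secondary and tertiary RNA was 1.45 to 2.19 in 11 libraries, and 4.13 in bone 3 and 3.44 in bone 4. Both late genes are short, with 694 (S100a8) and 522 (S100a9) bases of exon. The balance of short over long transcripts was -1.40 to -0.53 in XY9274 libraries and 0.75 to 1.83 in Lin-named libraries. It was 1.68 in bone 3, 1.83 in bone 4, -0.23 in fibrous 2 and -0.15 in fibrous 3. The part of this balance in the ratios was not tested.

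**Figure D3:**
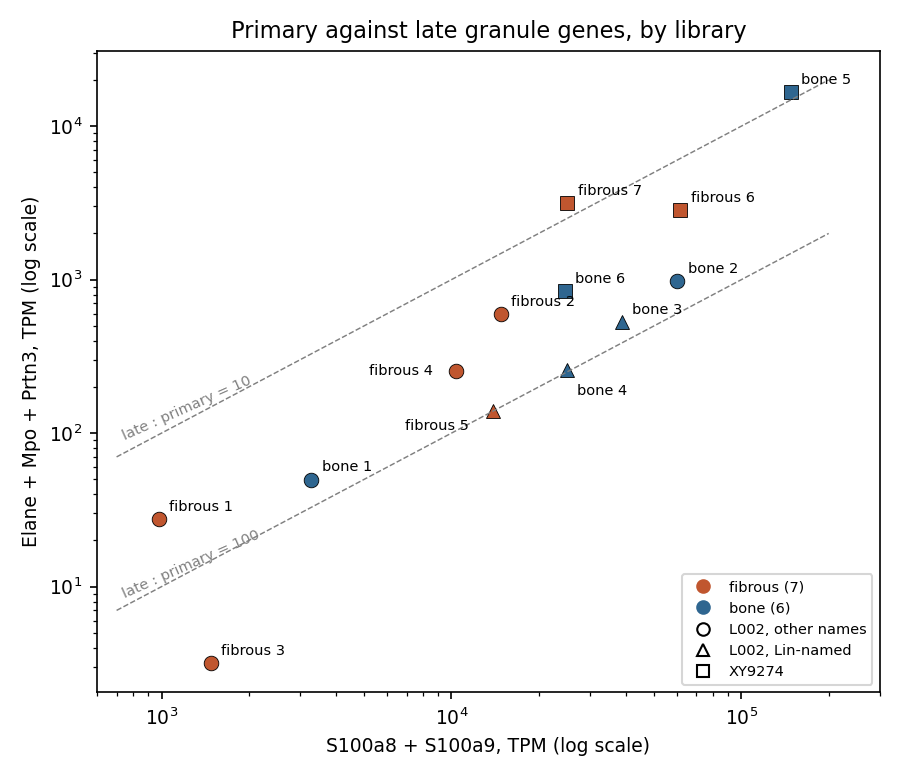
Summed TPM of Elane, Mpo and Prtn3 against summed TPM of S100a8 and S100a9 in each of the 13 libraries, on log axes, with dashed lines at 10 and 100 times more late than primary RNA. Fibrous 7 and bone 5 lie near the upper line and fibrous 3 lies far below the lower line, and points of both groups run along the same band.

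Primary granule RNA was most abundant in XY9274 libraries, where it held 0.06005% to 1.39% of all counts, against 0.000175% to 0.0750% in the 9 L002 libraries. Mpo had 888.7, 862.7, 8298 and 321.0 CPM in fibrous 6, fibrous 7, bone 5 and bone 6, against a lowest, median and highest L002 value of 0.441, 73.2 and 347.7 CPM. Elane had 454.8, 493.5, 3616 and 194.9 CPM in the same XY9274 libraries, against 0.698, 64.3 and 334.6 CPM in L002 libraries. For both genes bone 6 lay within the L002 range and the other 3 lay above it. Basophil and mast cell markers and Ptprc were above the L002 range in the same 3 libraries, and Kit in all 4. Basophil and mast cell markers summed to 411.0, 520.0, 1580 and 14.2 CPM in fibrous 6, fibrous 7, bone 5 and bone 6, against 5.30 to 136.0 CPM in L002 libraries. Ptprc had 149.0, 61.4, 441.0 and 34.7 CPM in these XY9274 libraries, against 0 to 51.3 CPM in L002 libraries. The 10 pan-leukocyte markers, Ptprc among them, summed to 2650, 1110, 9130 and 1190 CPM, against 244.0 to 2360 CPM. Their sum was thus above the L002 range in fibrous 6 and bone 5, and within it in fibrous 7 and bone 6. Kit, the stem cell factor receptor gene of progenitors and mast cells, had 102.0, 99.2, 158.0 and 61.4 CPM, against 0.773 to 40.5 CPM. The 8 haematopoietic progenitor markers, Kit among them, summed to 535.0, 486.0, 604.0 and 558.0 CPM, against 391.0 to 688.0 CPM. Their sum thus lay within the L002 range in all 4. B and plasma cell markers summed to 1870, 1750, 18100 and 569.0 CPM, against 64.9 to 1910 CPM, so only bone 5 was above the L002 range. Log2 fold changes were above 0 for 4 of 4 tested basophil and mast cell markers and 10 of 10 pan-leukocyte markers. They were also above 0 for 9 of 10 B and plasma cell markers, and none in these lists was called. So were 4 of 5 eosinophil, 2 of 2 T and NK cell and 4 of 6 haematopoietic progenitor markers. In either direction, 1 progenitor marker, which was not Kit, was called by edgeR's quasi-likelihood test, as were 2.16% of all genes. Other lists were mixed or lower, with 6 of 11 monocyte and macrophage, 1 of 9 erythroid and 0 of 4 megakaryocyte markers above 0. The part of these cell types in the name series differences was not tested. The log2 fold changes, XY9274 minus L002, were 4.07 (SE 1.11) for Mpo, 3.25 (SE 0.97) for Elane and 2.91 (SE 1.17) for Prtn3. They were 2.25 for Mmp8, 2.13 for Ltf, 1.45 for S100a9, 1.34 for Ngp, 1.33 for Lcn2, 0.93 for S100a8 and 0.90 for Camp. All 10 were above 0, as were 52.2% of all genes.

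None of the 10 passed edgeR's quasi-likelihood test between the name series, where 2.16% of all genes did; the lowest adjusted p were 0.0757 for Mpo and 0.0975 for Elane. At an unadjusted p under 0.05, 5 members were higher in XY9274 libraries (the 3 primary genes, Ltf and Mmp8), as were 13.2% of all genes. DESeq2 called 2 of the 10 as higher in XY9274 libraries, Elane (adjusted p 0.00936) and Ltf (adjusted p 0.0355), and gave Mpo no adjusted p; it called 14.9% of all genes, of which those higher in XY9274 libraries were 7.95% of all genes. Without bone 5 the values were 3.01 for Mpo and 2.54 for Elane, with adjusted p of 0.392 and 0.429 in edgeR's quasi-likelihood test. Transcript length moved with the name series: the median log2 fold change was -0.53 over the shortest genes and 0.76 over the longest. Elane, with 984 bases of exon, belongs to the short genes, and Mpo, with 3424 bases, does not. Outside the primary genes, Mmp8 (2425 bases) and Ltf (3450) had the highest values, 2.25 and 2.13. Camp (758 bases) and S100a8 (694) had the lowest, 0.90 and 0.93. S100a9 (522 bases) at 1.45 and Lcn2 (2623) at 1.33 did not follow that order. The part of the length balance in these values was not tested.

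**Figure D4:**
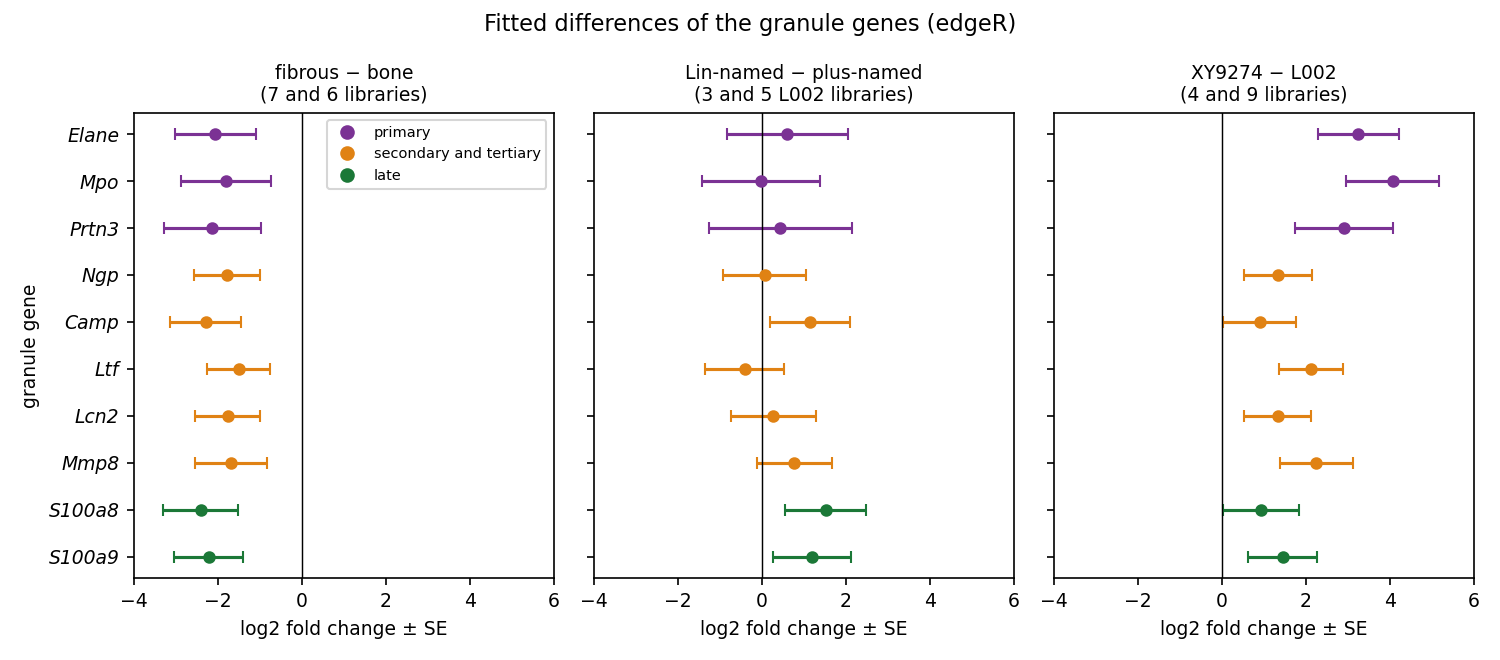
Log2 fold change with its standard error for each granule gene in 3 comparisons, fitted with edgeR: fibrous minus bone, Lin-named minus plus-named, and XY9274 minus L002. The 10 points lie between -2.41 and -1.50 in the first panel, between -0.41 and 1.52 in the second and between 0.90 and 4.07 in the third, where the 3 primary genes lie farthest to the right.

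No granule gene passed the test between Lin-named and plus-named libraries of the L002 series, and the late genes and Camp had the highest values. Lepr itself had 0.602 to 0.739 CPM in the Lin-named libraries and 46.7 to 804.0 CPM in the plus-named libraries. S100a8 had 14580 and 12310 CPM in bone 3 and bone 4 and 3323 CPM in fibrous 5, all Lin-named, against 324.8 and 9266 CPM in bone 1 and bone 2 and 1698, 179.7 and 1438 CPM in fibrous 2, 3 and 4, all plus-named. The Lin-named values were all above the plus-named median, and bone 2 was above fibrous 5. The log2 fold change of S100a8, Lin-named minus plus-named with group as a term, was 1.52 (SE 0.97, adjusted p 0.357 in edgeR's quasi-likelihood test). S100a9 was at 1.19 (SE 0.93) and Camp at 1.14 (SE 0.95). Mmp8 was at 0.77, Elane at 0.61, Prtn3 at 0.44, Lcn2 at 0.27, Ngp at 0.07, Mpo at -0.02 and Ltf at -0.41. edgeR's quasi-likelihood test called 0 of the 10 members and 8.16% of 13450 genes, of which those higher in Lin-named libraries were 3.15% of all genes. No member had an unadjusted p under 0.05. DESeq2 called 0 members and 26% of all genes, and limma's voom 0 members and 4.21% of all genes. Of the members, 8 of 10 were above 0, as were 43.4% of all genes.

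The order of these values followed exon length at both ends. The 3 highest belonged to the 3 shortest members (S100a9 with 522 bases, S100a8 with 694 and Camp with 758) and the 2 lowest to the 2 longest (Mpo with 3424 and Ltf with 3450). Over all genes the median log2 fold change was 0.51 in the shortest genes and -0.85 in the longest genes. The signs also rested on single libraries. Without bone 1, 6 of 10 members were below 0 (median -0.03), and without bone 2 none was (median 2.37). Names share a further token in 2 pairs of libraries. Bone 4 (Lin-named) had 0.192 times the Ltf, 0.334 times the Mpo and 0.344 times the Ngp of bone 2 (plus-named), but 1.33 times its S100a8 and 1.08 times its Camp. Fibrous 5 (Lin-named) had 1.96 times the S100a8, 1.67 times the S100a9 and 1.55 times the Camp of fibrous 2 (plus-named), but 0.375 times its Mpo and 0.477 times its Elane. In both pairs, the ratios of Elane, Mpo, Prtn3, Ltf and Mmp8 were below 1 and those of Camp and S100a8 above 1. The labels do not say that such libraries share a source.

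The count ratio of members on the same chromosome varied between libraries. For the neighbours Elane and Prtn3, Elane counts per Prtn3 count, in normalised CPM, ran from 1.36 (fibrous 3) to 9.39 (fibrous 1) over the 12 libraries with Prtn3, with a median of 3.53. For the neighbours S100a8 and S100a9, S100a9 per S100a8 was tighter, from 0.526 (bone 4) to 1.15 (fibrous 1) with a median of 0.785. Ngp and Camp lie 570 kb apart with 13 genes of the matrix between them, and Ngp and Ltf lie 596 kb apart with 15 between them. Ngp per Camp ran from 1.15 (bone 3) to 6.33 (fibrous 1) with a median of 3.83, and Ltf per Ngp from 0.165 (bone 4) to 0.566 (bone 1) with a median of 0.393. The ratios in bone 3 and bone 4 stand beside their high balance of short over long transcripts (1.68 and 1.83).

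Other genes of the granule programme, from lists chosen for their function, showed the same direction between fibrous and bone libraries and no call. Of all genes, 48.1% were below 0, and 1.97% were below 0 with an unadjusted p under 0.05 in edgeR's quasi-likelihood test. Of 7 other primary granule and promyelocyte genes, Bpi was not analysed here and all 6 tested were below 0 (median -1.96), 2 of them at an unadjusted p under 0.05. Nkg7, a granule membrane protein gene, averaged 12.2 ± 15.8 CPM in fibrous libraries and 55.5 ± 104.0 CPM in bone libraries (SD, n = 7 and 6; log2 fold change -2.02, SE 0.72). Ctsg, the gene of the protease cathepsin G, was at -1.95 (SE 0.94), Ms4a3, a marker of granulocyte and monocyte progenitors, at -2.38 (SE 1.28), and Serpinb1a, an inhibitor of elastase, at -1.81 (SE 0.75). Of 20 other secondary and tertiary granule genes, 19 were below 0 (median -1.65), 6 at an unadjusted p under 0.05. Pglyrp1, which binds peptidoglycan, was at -2.11 (SE 0.72), Chil3 at -1.98 (SE 0.74), Lyz2, a lysozyme, at -1.93 (SE 0.73) and Cyba, a subunit of the NADPH oxidase, at -1.61 (SE 0.60). The exception was Hp, the haptoglobin gene, at 0.07 (SE 0.83), singled out after its value was seen.

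Of 19 late neutrophil genes, Stfa2 had too few counts to be tested and all 18 others were below 0 (median -1.54), 5 at an unadjusted p under 0.05. The shares of all genes, here and for the 2 lists that follow, were again 48.1% and 1.97%. Ccl6, a chemokine, was at -1.87 (SE 0.70), Retnlg at -1.76 (SE 0.75), Slpi, a protease inhibitor, at -1.43 (SE 0.57) and Msrb1 at -1.03 (SE 0.39). Transcription factors of granulocytes were more mixed, with 6 of 9 below 0 (median -0.26) and 1 at an unadjusted p under 0.05. Spi1, which encodes PU.1, was at -1.52 (SE 0.64), Cebpe, which encodes C/EBP epsilon, at -1.68 (SE 1.07), Irf8 at -1.13 (SE 0.94) and Cebpa at 2.40 (SE 1.62). Of 12 genes of granule trafficking and sorting, 9 were below 0 (median -0.29) and none had an unadjusted p under 0.05. Srgn, the proteoglycan serglycin that packs granule proteins, was at -0.77 (SE 0.42), Vamp8 at -0.42 (SE 0.23), Hax1 at -0.44 (SE 0.22) and Vps13b at 1.71 (SE 0.88). In these 5 lists no gene was called by edgeR's quasi-likelihood test, DESeq2 or limma's voom, and 2 of the 5 share Cebpe. DESeq2 gave Ctsg, Trem1 and Gfi1 no adjusted p, so it could not call them.

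In the other comparisons a few listed genes were called by edgeR's quasi-likelihood test. Those higher in Lin-named libraries were 1 of 18 late neutrophil genes and 2 of 12 trafficking and sorting genes, and none of the other 3 lists, where 3.15% of all genes were called as higher. Those higher in XY9274 libraries were 1 of 6 other primary and 1 of 20 other secondary and tertiary genes, and none of the other 3 lists, where 1.89% of all genes were called as higher. No listed gene was called as lower in either comparison. Mxd1, a late neutrophil gene that represses transcription, rose in Lin-named over plus-named libraries by 1.70 on the log2 scale (adjusted p 0.0207), Srgn by 0.97 (adjusted p 0.0425) and Vamp8 by 0.82 (adjusted p 0.0375). Nkg7 rose in XY9274 over L002 libraries by 3.41 (adjusted p 0.0339) and Adam8, a metalloprotease, by 2.77 (adjusted p 0.0469). The other primary granule genes had a median of 3.07 in XY9274 over L002, the other secondary and tertiary genes of 1.70 and the late genes of 2.49.

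The genes whose pattern over the 13 libraries was most like each stage were found by Pearson's r of log2 CPM with the mean log2 CPM of the stage's members, among 9541 genes with a mean of at least 5 CPM. The libraries differ in depth, name series and content of blood cells, and r does not separate these, so it is given as a description. For the primary stage they were Ms4a3 (r 0.967), Tifab (0.964), Ccdc125 (0.961), Cldn15 (0.960) and Padi4 (0.960). For the secondary and tertiary stage they were Arhgdib (0.989), Pglyrp1 (0.986), Ncf4 (0.986), Cd177 (0.985) and Mcemp1 (0.983). For the late stage they were Wfdc21 (0.994), Lyz2 (0.987), Coro1a (0.986), Tyrobp (0.986) and Pglyrp1 (0.981). Likeness did not keep to the lists used above. Wfdc21, Lyz2 and Pglyrp1, named for the late stage, are on the secondary and tertiary list. Padi4, named for the primary stage, is on the late neutrophil list. Ms4a3 is on the primary list, and Pglyrp1 and Cd177 are on the secondary and tertiary list. Coro1a and Tyrobp also belong to the pan-leukocyte markers used above. Ms4a3 averaged 21.1 ± 23.2 CPM in fibrous libraries and 107.0 ± 163.0 CPM in bone libraries, and Wfdc21 averaged 60.8 ± 61.8 CPM in fibrous libraries and 268.0 ± 221.0 CPM in bone libraries (SD, n = 7 and 6). Pglyrp1 was the one gene named for 2 stages.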

How the data were processed

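RNA of 13 libraries was analysed from raw counts per gene, deposited by the authors as whole numbers in a single matrix of 23211 Ensembl IDs. The submitters' processing notes name edgeR and the builds mm10 and hg38, without version or role; aligner, counting tool, annotation and use of strand were not given in the sources read. IDs, coordinates and exon lengths come from GENCODE M21 (all matched). Promoters come from RefSeq (GRCm38.p6).

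edgeR 4.0.16 in R 4.3.3 ran with TMM factors, filterByExpr and robust dispersions; its quasi-likelihood F test was used with Benjamini-Hochberg adjustment over all tested genes and a threshold of 0.05. Terms were name series and group; for Lin-named against plus-named libraries, group and name token. Each SE was obtained as the log2 fold change over the root of F. DESeq2 1.42.0, limma 3.58.1, other scalings and filters, and leaving out libraries were alternatives. The script was tested on simulated data. TPM used exon-union lengths; log2 CPM for likeness had a prior count of 2. Of other genes, up to 4 per list with the smallest p between fibrous and bone, any past the threshold, and the 5 most like each stage were named. Members and lists were chosen with earlier results of these data known. Replicate numbers follow accession order and pair nothing.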

Additional observations from a re-analysis of the deposited data

Results flagged for a closer look

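One value stood apart. Prtn3 in bone 1 had 0.0 normalised CPM, where the other 5 bone libraries had 40.7 to 914.6 CPM. On the log2 scale its distance to the nearest bone library was 0.673 of the whole range of the group, more than Dixon's 95% limit for 6 samples. In the same library Elane was at 7.29 CPM and Mpo at 25.6 CPM. This was 1 flag in 26 tests (each member and each stage mean in both groups), and chance flags about 1 in 20 groups.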

How the results depend on the processing

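Between fibrous and bone libraries no member was called under any of 25 alternative settings. All 10 had negative log2 fold changes under 24 of them, with medians from -2.33 (without fibrous 2) to -1.20 (without the libraries below 5 CPM of Lepr). The exception, chosen after seeing the data, set fibrous 6 and 7 against bone 6 alone and gave 1.30 for Elane, 1.46 for Mpo, 1.60 for Prtn3, 0.047 for Ngp, 0.18 for Camp, 0.41 for Ltf, 0.19 for Lcn2, 0.77 for Mmp8, 0.23 for S100a8 and 0.51 for S100a9. Over all genes edgeR called 0, limma 0 and DESeq2 169. Between Lin-named and plus-named libraries edgeR called 1097 genes, DESeq2 3493, limma 566 and the replicate block on the 4 paired libraries 15, and leaving out 1 library gave 138 to 992. The replicate block turned Elane to -0.62, Prtn3 to -0.75, Ngp to -0.65, Lcn2 to -0.57 and Mmp8 to -0.38; it rests on 2 pairs whose shared source the labels do not state. Mpo turned to 0.017 with DESeq2, 1.12 with limma, 0.017 with RLE factors, 0.0019 with a stricter filter and 0.38 with no group term, and Ltf to 0.33 with limma. Leaving out 1 library gave -0.011 to 2.45 for Elane, -0.50 to 1.29 for Mpo, -0.090 to 4.52 for Prtn3, -0.64 to 1.96 for Ngp, -1.17 to 1.05 for Ltf and -0.32 to 2.29 for Lcn2. Between XY9274 and L002 libraries, with alternatives chosen after seeing the data, edgeR called 287 genes and DESeq2 1982, and leaving out 1 XY9274 library gave 87 to 237; all 10 members stayed above 0, and DESeq2 alone called any (Elane and Ltf). The causes were not tested. Stage shares moved by less than the spread between libraries when haemoglobin counts were left out of the total. Counts of 0 to 34 in the lowest libraries limit the primary genes and Mmp8 there.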
